A study of Mus musculus with 16 samples.

Results

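The m6A readers described here are 10 mouse genes taken by symbol from a list fixed by name, with no measured value in the choice: *Ythdf1*, *Ythdf2*, *Ythdf3*, *Ythdc1*, *Ythdc2*, *Igf2bp1*, *Igf2bp2*, *Igf2bp3*, *Hnrnpa2b1* and *Hnrnpc*. All 10 were among the 15386 genes of the RNA-seq count table, and 9 were among the 13490 genes of the m6A count table, which lists no *Igf2bp1*. The RNA-seq compared 3 libraries of control CFU-E cells with 3 libraries of *Mettl3*-deficient Kit-low CFU-E cells, and the m6A-seq compared 2 immunoprecipitated (IP) with 2 input libraries of control CFU-E cells. CFU-E cells are late erythroid progenitors, sorted here from bone marrow of C57BL/6 mice of either sex aged 10 to 16 weeks as Kit+ CD71+ cells without lineage markers. The lineage markers included Ter119, CD11b, CD3e and B220, and the gate also left out cells with CD41, CD34 or Sca1, among others. Low levels of the genes for such markers cannot be told apart from the sort.

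The deficient animals were *Mettl3*fl/fl EpoRCre/- mice, in which the EpoR-tdTomato-Cre allele recombines in erythroid cells and also in macrophages of erythroblastic islands. The labels name the other animals only as controls, and the supporting data of the study give EpoR-tdTomato-Cre/- for them, so both groups would carry the Cre allele. The Kit-low cells are the part of the deficient CFU-E gate with very little Kit on the surface, and no control library of such cells was analysed here, so the effect of the genotype and that of the gate cannot be told apart. The labels number the replicates and do not say whether they are separate animals, so p-values measure the spread between libraries, which may be technical. Samples of ProE cells were not analysed here.

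N6-methyladenosine (m6A) is written on mRNA by a complex around METTL3 and METTL14, often in the sequence context GGAC near the stop codon, and is removed by FTO and ALKBH5. Readers are the proteins that carry its effect. The YTH domain binds the methyl group directly. The cytoplasmic YTHDF1, YTHDF2 and YTHDF3 act on translation and decay, with YTHDF2 bringing in the CCR4-NOT deadenylase, whereas the nuclear YTHDC1 acts on splicing and export and the helicase YTHDC2 is best known from meiosis. The IGF2BP proteins bind through KH domains and protect mRNA from decay, are high in fetal cells and are mostly silent in adults. HNRNPA2B1 and HNRNPC are abundant nuclear RNA-binding proteins of splicing and pre-mRNA packaging, and HNRNPC reaches its U-tracts where m6A opens the RNA structure.

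Because the reader transcripts are themselves possible m6A carriers, the letters around the consensus-like motif closest to the stop codon are shown for the 4 readers that the m6A comparison turns on and that may be printed: *Hnrnpa2b1* and *Igf2bp3*, which were higher in IP, *Ythdc1*, which was lower, and *Ythdf2*, which differed little. Each line is 25 bases of the transcript strand in GRCm38, 5′ to 3′, with the motif in capitals. The *Hnrnpa2b1* window lies in the 3′ UTR at chr6:51462025-51462049 (minus strand), with the motif 40 bases after the first base of the stop codon. The *Ythdf2* window also lies in the 3′ UTR, at chr4:132186858-132186882 (minus strand), 54 bases after it. The *Igf2bp3* window is coding, at chr6:49087354-49087378 (minus strand), 24 bases before the stop codon, and the *Ythdc1* window is coding, at chr5:86835859-86835883 (plus strand), 37 bases before it.
Hnrnpa2b1: tatgaaccatGGACAagtatattct
Igf2bp3: tctgcagagtGGACCacctcagtca
Ythdc1: tatgtgatcgGGACAgagaccgagg
Ythdf2: tatcctaagaGGACAcgatgacctg

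The search covered 1 coding transcript per gene (GENCODE M21) on the transcript strand for 3 forms of the motif. Form 1 was GGACT, form 2 was spelled GGACA and form 3 was spelled GGACC, and they cannot overlap each other. At least 1 form was found in 99% of 14798 genes of the tables, with a median of 11 sites per transcript and 3.57 per kilobase, so its presence sets no reader apart. *Ythdf2* had 17 sites, 5 of them GGACT, or 4.12 per kilobase. *Hnrnpa2b1* had 6 sites in 1662 bases, or 3.61 per kilobase, 5 of them form 3 and none GGACT. *Igf2bp1* had the most sites of the readers, 33, with 23 in a 3′ UTR of 6337 bases. The lowest densities were those of *Hnrnpc* with 1.2 and *Ythdc2* with 1.39 per kilobase, below which lay 3.82% and 5.27% of genes. *Ythdc2* had 3 GGACT sites and 0 sites in its 3′ UTR. A match says nothing of whether a site is methylated, and the gene sums of the m6A table do not place reads on sites.

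**Figure D1:**
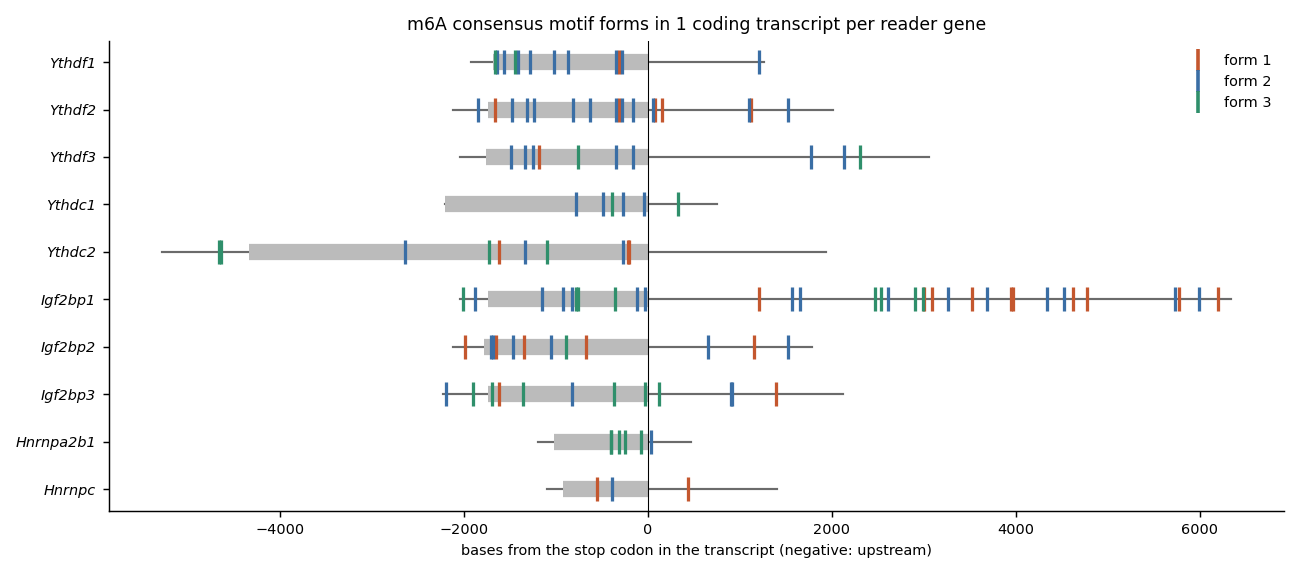
Positions of 3 motif forms (forms 1 to 3 as spelled out in the text) in 1 coding transcript of each reader gene, as bases from the stop codon; thick grey bars are coding sequence and thin lines are UTRs. The 23 sites of *Igf2bp1* spread over its long 3′ UTR, and *Ythdc2* shows 0 sites there.

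The RNA-seq totals ran from 17429262 to 21329242 counts. The m6A-seq totals differed more, from 19421059 in input replicate 2 to 37142742 in IP replicate 1. In CPM, each gene's count relative to the TMM-scaled total of its library, *Mettl3*, the targeted gene, was at 115, 123 and 129.8 in the control libraries and at 117, 127 and 108 in those labelled *Mettl3*-deficient. The groups overlapped, with a log2 fold change of -0.07 ± 0.10 (SE) and an adjusted p of 0.63 (edgeR quasi-likelihood test), so the gene sum does not mark the libraries labelled *Mettl3*-deficient. Gene sums do not resolve a floxed exon. *Kit* did mark them, at 544, 629 and 622 against 68.5, 53.1 and 44.0 CPM. These cells were gated on low surface Kit, so this difference cannot be told apart from the sort and is no check of the genotype. All 6 CFU-E genes listed (*Epor*, *Gata1*, *Klf1*, *Tfrc*, *Tal1*, *Nfe2*) were present, with a summed level of 2532 to 2635 CPM in control and 3159 to 3309 in Kit-low libraries. Genes of other lineages were low, and some moved with the comparison. Macrophage genes summed to 8.69 to 13.7 CPM in control and 7.82 to 9.39 in Kit-low libraries, with 1 of 5 tested (*C1qa*) called lower. *Cd68*, *C1qb*, *Csf1r* and *Vcam1*, with log2 fold changes of 0.13, -0.25, 0.31 and -1.05, were not called. *Adgre1*, at 0 in all Kit-low libraries, had only 2 reads in each control library and was not tested. Granulocyte genes went from 25.2 to 37.6 CPM in control to 13.9 to 21.8 in Kit-low libraries, with 1 of 3 (*Mpo*) called lower. *Mpo*, at 19.6 CPM on average in control and 5.01 in Kit-low libraries, held most of that sum. *Elane* and *Prtn3*, with log2 fold changes of -1.89 and 0.35, were not called. *S100a8* and *Camp*, too low to be tested, were higher in every Kit-low library than in any control. Megakaryocyte genes went from 13.1 to 20.4 CPM to 20 to 25.9, with 2 of 4 (*Itga2b* and *Gp9*) called higher. *Pf4*, not called at a log2 fold change of -2.31, was below the controls in every Kit-low library. *Vwf*, at 0.05, was not called either. Lymphoid genes summed to at most 1.62 CPM in these 6 libraries and 3.54 CPM in the m6A libraries. Over all genes, 12.1% were called higher and 9.83% lower. The part of these other lineages in the reader values was not tested.

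In control CFU-E cells the readers spanned a wide range of mRNA levels. Per kilobase of annotated exon, *Hnrnpa2b1* was highest at 531 ± 54.1 CPM (SD, n = 3), followed by *Hnrnpc* at 203 ± 12.2 and *Ythdf2* at 84.0 ± 8.22. These 3 genes lay above 99.6%, 98.5% and 95.6% of 15376 genes. *Ythdf1* at 9.34 ± 0.607 and *Ythdf3* at 8.55 ± 1.40 came next, and their libraries overlapped. The YTHDC genes were lower still, *Ythdc1* at 3.43 ± 0.288 and *Ythdc2* at 1.48 ± 0.200. The 3 IGF2BP genes closed the order, *Igf2bp3* at 0.147 ± 0.0354, *Igf2bp1* at 0.108 ± 0.0426 and *Igf2bp2* at 0.0508 ± 0.00399, above 21.3%, 17.8% and 10% of genes. The libraries of *Igf2bp3* and *Igf2bp1* overlapped too, and those of the other 7 pairs of neighbours did not. The step from *Ythdf2* to *Ythdf1* was 9.0-fold and that from *Ythdc2* to *Igf2bp3* 10.1-fold. With the median annotated transcript as the length, *Ythdc1* moved up to rank 4 and *Ythdf1* and *Ythdf3* down by 1 place each.

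The m6A-seq input libraries, also of control CFU-E cells, gave the same first 3 genes without division by length, since each mRNA is read there near its 3′ end. *Hnrnpa2b1* was at 1740.1, *Hnrnpc* at 648 and *Ythdf2* at 119 CPM, followed by *Ythdc1* at 32.6, *Ythdf1* at 18.3 and *Ythdc2* at 14.4 CPM. *Ythdf3*, at rank 5 in the RNA-seq, was at rank 7 here with 2.53 CPM, next to *Igf2bp3* at 2.41 CPM.

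In the Kit-low libraries *Ythdf2* rose 2.26-fold and overtook *Hnrnpc* per kilobase of exon, 189.7 ± 16.1 against 154 ± 6.90 CPM (SD, n = 3). With the longest transcript as the length it stayed below *Hnrnpc*, 210.1 ± 17.8 against 234 ± 10.5 CPM. It was the reader with the largest change. *Ythdf1* rose 1.5-fold, *Hnrnpc* was lower by less than the fold threshold, and the other 6 tested readers passed no threshold. A call here needed a fold change of at least 1.5 and an adjusted p under 0.05. Of the 9 readers tested, 2 were called higher and 0 lower, whereas of 11979 genes tested 12.1% were called higher, 9.83% lower and 22.0% either way. By adjusted p alone 3 readers passed, against 34.5% of all genes, and 3 had groups that did not overlap, against 47.5% of all genes. The unadjusted p was under 0.05 for the same 3. The median log2 fold change of the readers was 0.10 and that of all genes 0.01, and the share of readers called, 2 of 9, was near the background.

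**Figure D2:**
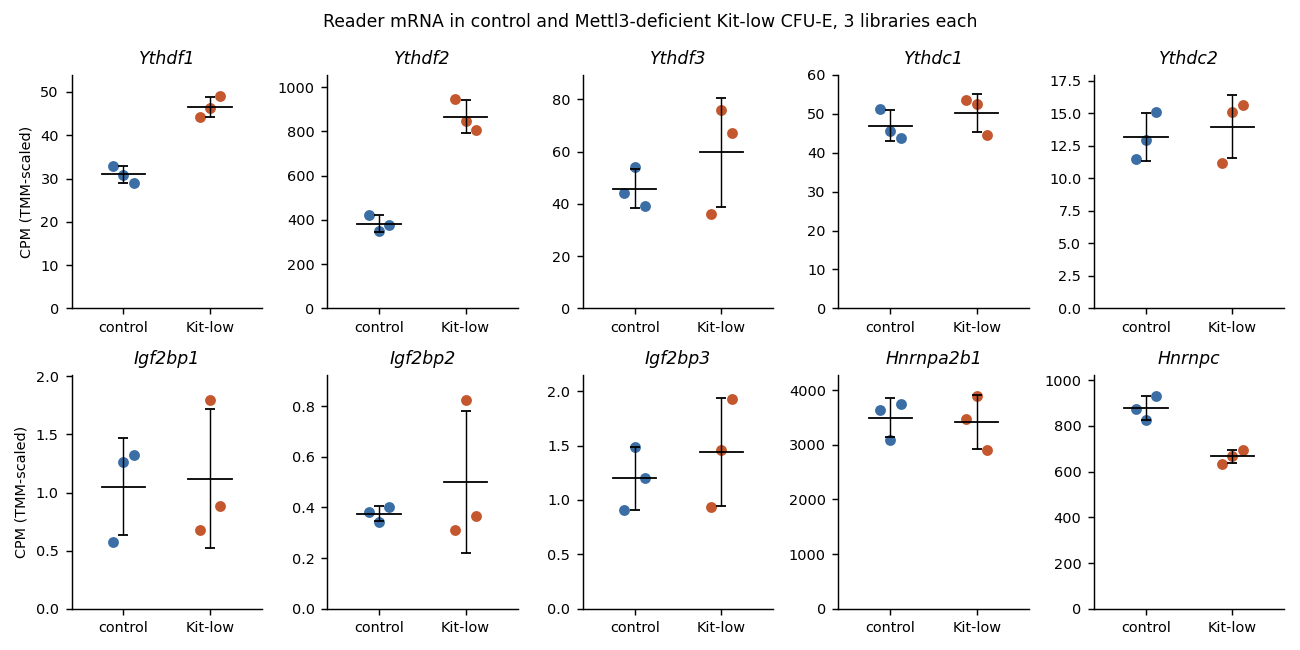
mRNA of the 10 readers in CPM (linear axes from 0) in 3 control and 3 *Mettl3*-deficient Kit-low libraries; points are libraries, lines the mean and bars the SD. The groups are apart for *Ythdf1*, *Ythdf2* and *Hnrnpc* and overlap for the other 7 genes.

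*Ythdf2* was at 424, 349.6 and 378 CPM in the control and at 949, 847 and 806 CPM in the Kit-low libraries. Every Kit-low library lay above every control library. The log2 fold change was 1.18 ± 0.10 (SE) with an adjusted p of 1.5e-05, above 93.8% of all genes, and it was called in all 16 alternative settings, between 1.10 and 1.25. Of its 31-base words, 12.7% also occur in other annotated genes, mostly in *Gm6823*, a gene that neither table lists. In all, 11 other genes hold such words, and 5 of these have counts here. Late erythroid genes moved in the same libraries, 9 of the 11 tested being called higher and their summed level going from 2222 to 2460.4 CPM in control to 5822 to 7693 CPM in Kit-low libraries. Of the early progenitor genes 4 of the 6 tested were called lower, among them *Kit*, by which the cells were gated. Over all genes, 12.1% were called higher and 9.83% lower. The part of these stage genes in the change of *Ythdf2* was not tested. In bulk libraries more cells of a later stage and more RNA per cell cannot be told apart.

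*Ythdf1* was at 33.0, 30.8 and 29.0 CPM in control and at 44.3, 46.2 and 49.0 CPM in Kit-low libraries, again without overlap. Its log2 fold change of 0.59 ± 0.12 had an adjusted p of 0.0035 and sat on the fold threshold. Leaving out control replicate 2, control replicate 3 or Kit-low replicate 3 gave 0.58, 0.53 and 0.56, which ended the call through the fold alone, as did upper-quartile scaling and the omission of the filter on low counts. *Ythdf3* was at 44.2, 54.0 and 39.3 against 36.0, 75.8 and 67.3 CPM. Kit-low replicate 1 was below all controls and the other two Kit-low libraries above them. The log2 fold change was 0.38 ± 0.24 (adjusted p = 0.26), and without Kit-low replicate 1 it was 0.64 with an adjusted p of 0.0085, which is a call.

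Within the YTHDF family, a ratio inside each library does not depend on scaling. *Ythdf2* made up 83.6%, 79.8% and 83.7% of the family's reads per exon base in control and 91.2%, 86.8% and 86.6% in Kit-low libraries. The share rose from 82.4% ± 2.24 to 88.2% ± 2.58 (SD, n = 3), by 5.84 percentage points, with every Kit-low library above every control. The share of *Ythdf1* went from 9.18% to 6.55% and that of *Ythdf3* from 8.46% to 5.25%, both without overlap. Each gave an exact two-sided permutation p of 0.10, the smallest that 3 against 3 libraries allow. The 3 genes share none of their 31-base words with each other.

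**Figure D3:**
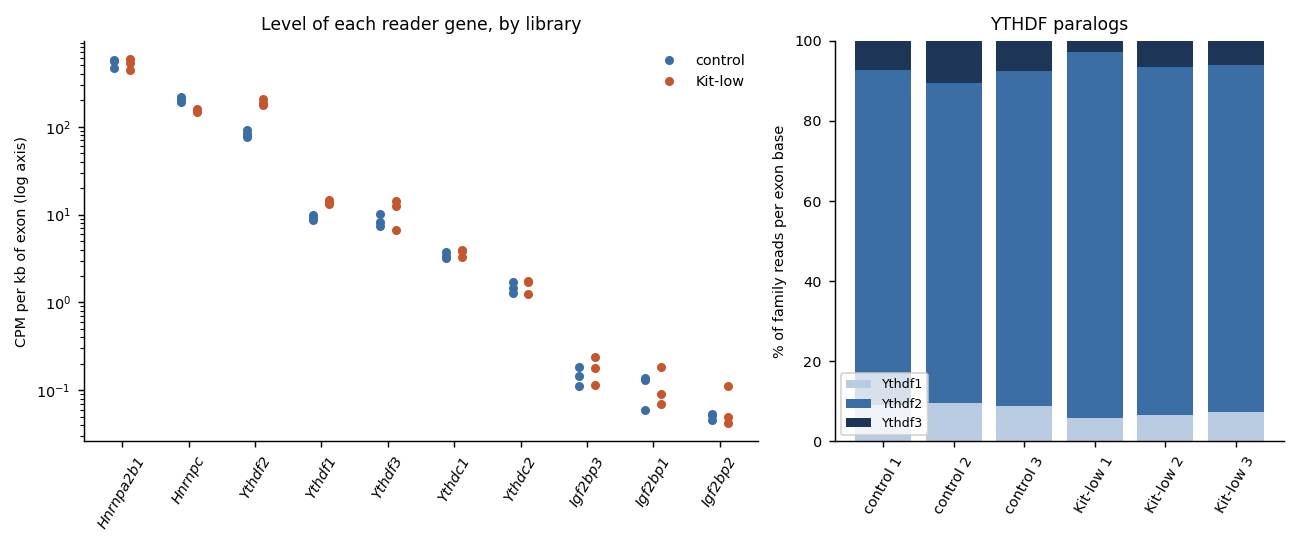
Left, CPM per kilobase of exon (log axis) of the 10 readers in 3 control and 3 Kit-low libraries, ordered by control level; right, percent of YTHDF family reads per exon base held by each paralog in each library. *Ythdf2* holds 79.8% to 83.7% in control and 86.6% to 91.2% in Kit-low libraries.

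The YTHDC genes showed no call. *Ythdc1* was at 51.3, 45.6 and 43.7 CPM in control and at 53.4, 52.4 and 44.5 CPM in Kit-low libraries, a log2 fold change of 0.10 ± 0.12 (adjusted p = 0.59). *Ythdc2* was at 11.5, 12.9 and 15.1 against 11.2, 15.1 and 15.6 CPM, with 0.09 ± 0.20 (adjusted p = 0.77). Both genes overlapped between the groups.

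The IGF2BP genes were close to the floor of the libraries. All 3 together had 37 to 84 reads per library, against 7597 to 19964 for the YTHDF genes. *Igf2bp1* was at 0.575, 1.26 and 1.32 CPM in control and at 0.675, 1.8 and 0.887 CPM in Kit-low libraries. *Igf2bp3* was at 0.910, 1.49 and 1.2 against 0.935, 1.46 and 1.93 CPM. The groups overlapped for both, and log2 fold changes of 0.10 ± 0.58 and 0.27 ± 0.49 (adjusted p = 0.91 and 0.72) came with SEs several times that of *Ythdf2*, and no change was detected at this depth. *Igf2bp2*, at 6 to 17 reads per library, did not pass the count filter and was not tested. The exons of *Igf2bp3* overlap those of *Malsu1* on the opposite strand over 1529 of 8159 bases (18.7%), and no source used here says whether reads were counted by strand. *Malsu1* was at 35.3 ± 2.54 CPM in control and 41.5 ± 3.29 in Kit-low libraries. Of the fetal genes listed with the IGF2BPs, *Lin28a*, *Lin28b*, *Igf2* and *H19* are not in the table, and 0 of the other 3 was called (median log2 fold change -0.48), whereas 2 were called without Kit-low replicate 1.

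*Hnrnpa2b1*, the most abundant reader mRNA, was at 3639.8, 3087 and 3752 CPM in control and at 3464, 3891 and 2908 CPM in Kit-low libraries. The log2 fold change of -0.03 ± 0.11 (adjusted p = 0.87) changed sign between settings. *Hnrnpc* was at 872, 827 and 932 against 634, 669 and 694 CPM, without overlap. Its log2 fold change of -0.40 ± 0.08 had an adjusted p of 0.0026, and at 0.759-fold it fell short of the fold threshold. Of its 31-base words 13.7% occur in other annotated genes, mostly in *Gm12696*, which neither table lists. In all, 219 other genes hold such words, and 163 of these have counts here. Of 19 other hnRNP genes, 2 were called lower and 0 higher, *Hnrnph1* at -0.76 ± 0.11 and *Hnrnpll* at -0.67 ± 0.22, where 9.83% of all genes were called lower, and the median of the 19 was -0.26. Only 1 was called with library totals, without any 1 of the 3 control replicates or without Kit-low replicate 2. *Hnrnpc* thus lay below the median of that family and *Hnrnpa2b1* above it.

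The 88 genes listed with the readers were looked at for the same comparison. They were writers, erasers, other proteins bound or repelled by m6A RNA, and known partners. The fetal genes and the 19 other hnRNP genes given above were among the 88 as well. In all, 80 were tested, 4 of them called higher and 15 lower, where all genes gave 12.1% and 9.83%. The writers gave 2 of 9 higher, *Rbm15* at 1.71 ± 0.35 and *Wtap* at 1.37 ± 0.16, both adaptors that place the complex on RNA, and 1 lower, *Mettl14*, the RNA-binding partner of METTL3, at -0.65 ± 0.16. *Rbm15* was at 34.7, 103 and 112 CPM in the Kit-low libraries, so replicate 1 stood near the controls at 22.8 to 26.8 CPM, as it did for *Ythdf3*. The erasers gave no call, *Fto* with -0.02 ± 0.15 and *Alkbh5* with 0.29 ± 0.11.

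Of the CCR4-NOT and other decay partners of YTHDF2, 3 of 22 tested were called lower and 2 higher. Both were near the shares over all genes, 9.83% and 12.1%. The list had a median log2 fold change of -0.15. The lower genes were *Cnot7*, a deadenylase subunit, at -0.63 ± 0.14, *Cnot10*, a subunit of the same complex, at -0.59 ± 0.10, and *Rpp40*, a protein of the RNase P and MRP particles, at -0.65 ± 0.20. The higher genes were *Pop7* at 1.71 ± 0.09 and *Rpp38* at 1.30 ± 0.16, proteins of the same particles. *Cnot1*, the scaffold that YTHDF2 contacts, had -0.49 ± 0.12 and did not reach the fold threshold. The counts of this list depended on single libraries: 3 genes were called without control replicate 1, Kit-low replicate 2 or Kit-low replicate 3, and also with library totals in place of TMM.

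Among proteins without a YTH domain that are reported to bind m6A RNA or to be repelled by it, 4 of 10 were called lower and 0 higher. For this and the next 2 lists, the share over all genes was 9.83% lower and 12.1% higher. *Rbmx*, an hnRNP-like protein, fell by 1.79 on the log2 scale, from 86.4 ± 6.01 to 25 ± 4.80 CPM, and *Fxr1*, *Snd1* and *Fmr1* had -0.73, -0.61 and -0.60. Of the 7 proteins known to stabilise mRNA together with IGF2BPs, 4 were called lower: *Ybx1* at -0.92, *Matr3* at -0.66, *Pabpc1* at -0.64 and *Syncrip* at -0.60. Their list median of -0.60 compares with 0.01 for all genes. Without control replicate 3, the number called in the stabilising list was 2, and without Kit-low replicate 3 or with library totals that in the list of bound or repelled proteins was 2. Of 9 nuclear partners of YTHDC1 tested, only *Srsf7*, a splicing and export factor, was called, at -0.61 ± 0.09, and the call was lost without control replicate 3, without Kit-low replicate 1 and with library totals. The 5 genes whose profile over the 6 libraries was nearest to that of *Ythdf2* by Euclidean distance of centred log2 CPM were *Slc25a51* (0.119), *Cep250* (0.165), *Ninj1* (0.176), *Klhl36* (0.178) and *Fbxo5* (0.183).

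In control CFU-E cells, m6A IP over input asks which reader transcripts were enriched by the anti-m6A antibody relative to the average transcript. *Hnrnpa2b1* and *Igf2bp3* were higher in IP, 2.97-fold each, and *Ythdc1* and *Ythdc2* were lower, at 0.498-fold and 0.340-fold. Transcripts of the YTHDF genes were not called in either direction. A call here needed an adjusted p under 0.05. Of the 9 readers tested, 2 were called higher and 2 lower, against 7.90% higher and 7.86% lower of 11447 genes tested. In 6 readers the IP and input libraries did not overlap, against 60.9% of all genes. The median log2 ratio was 0.07 for the readers and 0.06 for all genes.

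**Figure D4:**
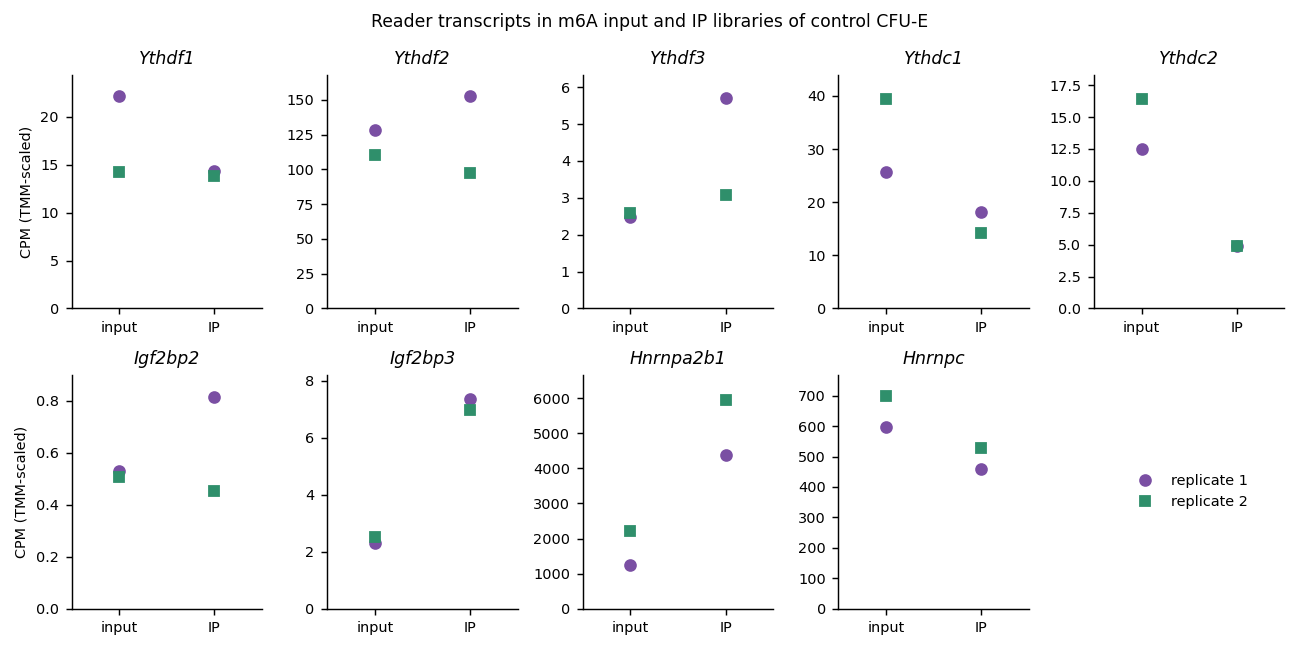
CPM (linear axes from 0) of 9 reader transcripts in 2 input and 2 IP libraries of control CFU-E cells; circles are replicate 1 and squares replicate 2. *Hnrnpa2b1*, *Igf2bp3* and *Ythdf3* lie higher in both IP libraries than in either input, and *Ythdc1*, *Ythdc2* and *Hnrnpc* lower.

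*Hnrnpa2b1* was at 1255 and 2225 CPM in input and at 4387 and 5936 CPM in IP. Both IP libraries lay above both input libraries, which themselves differed. The log2 ratio was 1.57 ± 0.32 (SE) with an adjusted p of 0.0093, above 96.3% of all genes. It was called in 10 of 11 alternative settings. The exception was the fit without input replicate 1, the lower of the inputs, where it was 1.19 with a single input library left. By replicate number, IP was 3.50-fold over input in replicate 1 and 2.67-fold in replicate 2. In the transcript searched, of 1662 bases, this reader had no GGACT and carried the form 2 site shown above and 5 sites of form 3. Its 13 annotated transcripts reach 3645 bases, and the others were not searched.

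*Igf2bp3* was at 2.29 and 2.53 CPM in input and at 7.34 and 6.98 CPM in IP, from 52, 45, 306 and 139 reads. The log2 ratio of 1.57 ± 0.32 had an adjusted p of 0.0099, and 0.095 without input replicate 1. *Malsu1*, the gene on its opposite strand, was at 128 and 149 CPM in input and 81.6 and 131 CPM in IP, with a log2 ratio of -0.38 ± 0.26 that was not called. Its CPM was lower on average in IP, and the IP and input libraries overlapped. The part of shared reads in the value of *Igf2bp3* was not tested. *Igf2bp2* was at 0.529 and 0.506 against 0.815 and 0.452 CPM, with 0.33 ± 0.60 (adjusted p = 0.74), from 9 to 34 reads per library.

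*Ythdc2* was at 12.5 and 16.4 CPM in input and at 4.87 and 4.92 CPM in IP. Its log2 ratio of -1.56 ± 0.29 (adjusted p = 0.0056) lay above only 4.29% of all genes, and it was called in all 11 alternative settings, between -1.76 and -1.36. *Ythdc1* was at 25.7 and 39.5 against 18.1 and 14.2 CPM, with -1.0 ± 0.29 (adjusted p = 0.040). Its call was lost with library totals in place of TMM (-0.83), without input replicate 2 (-0.67) and without IP replicate 2 (-0.85). Both YTHDC genes therefore had fewer reads in IP than in input, relative to the average transcript, in every library.

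*Ythdf2* was at 128 and 110.1 CPM in input and at 153 and 97.4 CPM in IP, a log2 ratio of 0.07 ± 0.25 (adjusted p = 0.87). Its sign differed between the replicate numbers, 0.26 in replicate 1 and -0.18 in replicate 2. *Ythdf1* was at 22.2 and 14.3 against 14.4 and 13.8 CPM, with -0.38 ± 0.28 (adjusted p = 0.39). *Ythdf3* was at 2.47 and 2.59 against 5.71 and 3.07 CPM, from 46 to 238 reads per library, with 0.81 ± 0.40 (adjusted p = 0.19), and both IP libraries lay above both inputs. Without IP replicate 2 its adjusted p was 0.043. *Hnrnpc* was at 596 and 699.5 against 459 and 527 CPM, with -0.39 ± 0.22 (adjusted p = 0.25), and both IP libraries lay below both inputs.

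The scaling shifted the IP over input ratios as a whole. Library totals in place of TMM raised the median log2 IP over input ratio of all genes by 0.16 and the upper quartile raised it by 0.13, and the share of calls that were higher went from 50.1% to 60.6% and 65.8%. *Hnrnpa2b1* and *Igf2bp3* stayed on the higher side and *Ythdc1* and *Ythdc2* on the lower side under both. No reader was called in both comparisons, and *Igf2bp1* and *Igf2bp2* were each tested in only 1 of them. Over all genes, 22.0% were called in Kit-low over control, and 7.90% higher and 7.86% lower in IP. The share of all genes called in both was not counted, so nothing about the readers follows from this.

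**Figure D5:**
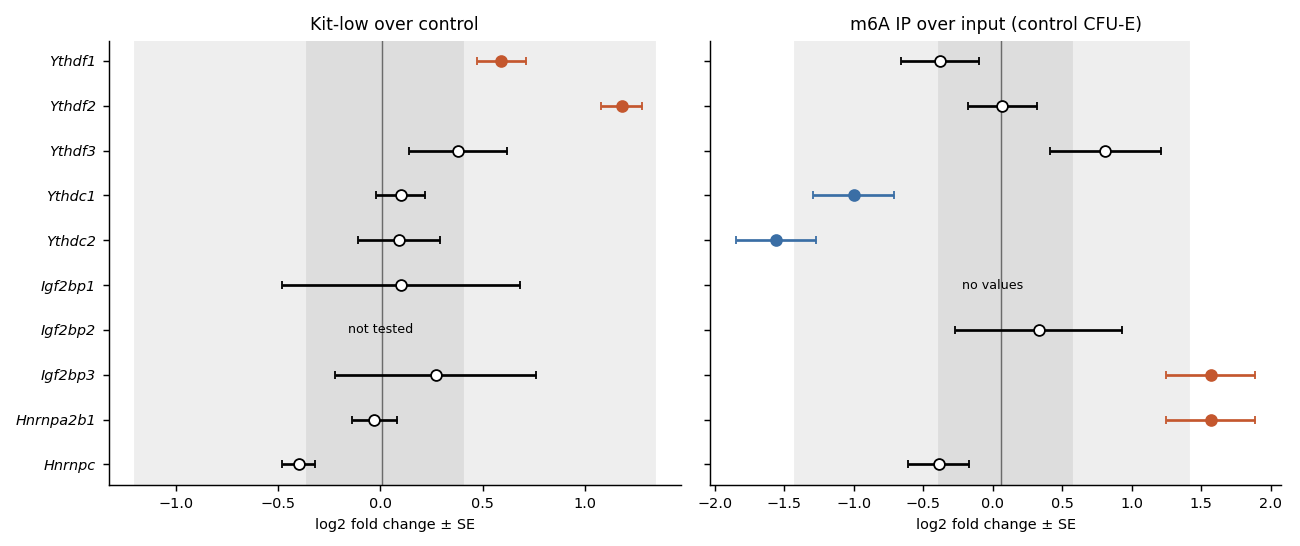
Log2 fold change ± SE of each reader for Kit-low over control (left) and m6A IP over input (right); filled points were called (orange higher, blue lower), open points were not, and grey bands hold the middle 50% and 90% of all genes tested. *Ythdf2* at 1.18 has the largest change of the readers on the left and lies inside the wider band. On the right, *Hnrnpa2b1* and *Igf2bp3* at 1.57 and *Ythdc2* at -1.56 lie outside it.

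The 88 listed genes again include the 19 other hnRNP genes, which are also given apart below. Of the 88, 80 were tested in the m6A comparison, with 11 called higher and 9 lower in IP, where all genes gave 7.90% and 7.86%. Without input replicate 1 fewer of them were called, in a fit with a single input library. Calls over all genes also fell without input replicate 1, input replicate 2 or IP replicate 1, and rose without IP replicate 2. Among the writers *Rbm15* was at 2.17 ± 0.40 and *Wtap* at 1.04 ± 0.28, and of the erasers *Alkbh5* was at 1.66 ± 0.27, all higher, whereas *Mettl3* with 0.13 ± 0.24, *Mettl14* with 0.90 ± 0.29 and *Fto* with 0.35 ± 0.24 were not called. Of the decay partners, *Cnot9*, a CCR4-NOT subunit, was at 1.82 and *Cnot1* at 1.10, and *Cnot11*, of the same complex, at -2.43 and *Upf1*, the nonsense-mediated decay helicase, at -1.21. *Xrn1*, the exonuclease known to bind YTHDC2, was at 1.12. Of the nuclear partners of YTHDC1, *Srsf10* was at 0.99 and *Alyref*, an export adaptor, at -5.32, with 972 and 865 CPM in input and 17.3 and 29.0 in IP. *Alyref* had 22.3 ± 0.247 CPM (SD, n = 3) in the control RNA-seq, against 919 in the input libraries. *Ybx1* was at -3.67, *Lrpprc* at 1.31 and *Fmr1* at -1.02. The call of *Xrn1* was lost without input replicate 1 or input replicate 2, and those of *Lrpprc* and *Fmr1* without input replicate 1. Among decay partners 4 were called, 2 without input replicate 1 and 8 without IP replicate 2. Among writers 2 were called, 1 without input replicate 1 or IP replicate 1. Among nuclear partners of YTHDC1 2 were called, 1 without input replicate 1 or 2 and 4 without IP replicate 2, and among stabilising partners 1 was called and 2 without IP replicate 2.

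Of the 19 other hnRNP genes, 3 were called higher and 4 lower in IP, where all genes gave 7.90% and 7.86%. Without input replicate 1 or without IP replicate 1 fewer were called, as was so over all genes. *Hnrnph2* at 1.55, *Hnrnpa0* at 0.90 and *Hnrnph1* at 0.78 were higher, and *Hnrnpab* at -2.55, *Raly* at -2.37, *Hnrnpl* at -1.74 and *Hnrnpll* at -1.32 were lower. *Raly* is the closest relative of *Hnrnpc* in this list and had 242 and 193 CPM in input and 34.5 and 50 CPM in IP. The ratio of *Hnrnpa2b1*, 1.57, compared with 1.55 for the highest of these 19 genes. The difference between these genes was not tested.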

How the data were processed

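The RNA-seq held 6 libraries, 3 of each group, and the m6A-seq held 4, of which 2 were IP and 2 input. Of 16 samples mapped, 10 had values. The authors filtered reads with fastp 0.23.4, quantified transcripts with kallisto 0.48.0 on mm10, summed them by gene in tximport, and deposited the estimated counts (expected counts), not normalized. The submitters' processing notes also name GRCm39. RNA-seq libraries were primed with oligo-dT (Smart-seq2). The m6A libraries (SLIM-seq) carry a molecular identifier, whose use in the counting, like the strand, is not given in the sources used here. Every deposited value was whole.

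Tests ran in edgeR 4.0.16 under R 4.3.3 (TMM, filterByExpr, glmQLFit, glmQLFTest), in a separate fit for each experiment across all genes, with Benjamini-Hochberg adjustment over all tested genes. SE is the absolute log2 fold change divided by the square root of F. CPM used TMM-scaled library sizes. DESeq2 1.42.0, which the authors used, was an alternative, with other normalizations, filters, thresholds, a replicate block and each library left out. Lengths, overlaps, shared 31-base words and motifs came from GENCODE M21 on GRCm38, the same assembly as mm10, which matched 99.9% of genes by symbol. No 2 libraries were copies: the chi-square per degree of freedom within groups was 10.3 or more. Both fits were tested on simulated counts.

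All readers are named. From each partner list, up to 4 called genes per direction and comparison are named, with *Mettl3*, *Mettl14*, *Fto* and *Alkbh5* always, and the 5 genes nearest to the most changed called reader. *Cnot1*, *Malsu1* and *Raly* in further places, the marker genes of other lineages and the fetal genes not listed in the table, were added after their values were seen. Members and lists were chosen with earlier results of these data known. Figures used Python 3.11.15 and matplotlib 3.10.9.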

Additional observations from a re-analysis of the deposited data

How the results depend on the processing

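Alternatives changed 1 choice at a time, except that DESeq2 replaced the scaling, the model and the test together and that the input libraries replaced both the libraries and the length. In Kit-low over control, 2 readers were called, and 1 with the upper quartile, with no filter on low counts and in the test against a fold of 1.5, in each case because *Ythdf1* was lost. Leaving out single libraries gave 1 to 3. In IP over input, 4 readers were called, 2 to 4 when single libraries were left out (2 without input replicate 1). With a single library in an arm, that library is assumed to vary like the others. Among the 88 partner genes, a term that here takes in the fetal and other hnRNP genes, 19 were called in Kit-low over control. With library totals only 12 were called, with no fold threshold 32, in the test against a fold of 1.5 6, and without single libraries 14 to 18. In IP over input 20 were called, and 10 to 29 without single libraries, 10 being without input replicate 1.

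The replicate block left the calls among readers at 2 and 4. For IP over input it took the partner genes called to 39 and all genes called from 1804 to 3538, whereas 591 were called without input replicate 1 and 1173 without IP replicate 1. In Kit-low over control all genes called went from 2631 to 4128 with no fold threshold and to 1147 in the test against a fold of 1.5. Same-numbered RNA-seq libraries deviated with r of 0.08, -0.02 and -0.09, and differently numbered ones with -0.17 to 0.18. This gave no sign of pairing by number and cannot exclude it. The 2 m6A pairs gave 0.32, which is a single value, since with 2 libraries per kind their deviations are exact opposites. Whether an IP and an input of 1 number share their RNA is not given in the sources used here, so the fit without the block was kept.

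The order of levels changed place for 3 readers with the median transcript length and for 4 of 9 in the input libraries. The 5.84-point rise of the *Ythdf2* share was 4.35 to 6.65 without single libraries.

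The sign turned in readers without a call. *Hnrnpa2b1* in Kit-low over control was 0.03 with library totals, and -0.12 to 0.09 without single libraries, being 0.02 without control replicate 3 and 0.09 without Kit-low replicate 3. *Ythdc2* ranged from -0.005 (without control replicate 1) to 0.22, and *Igf2bp1* from -0.39 (without Kit-low replicate 2) to 0.36, with -0.20 without control replicate 1. In IP over input, *Ythdf2* was -0.04 without input replicate 2 and -0.31 without IP replicate 1, and 0.36 at most, and *Igf2bp2* ranged from -0.21 without IP replicate 1 to 0.65. The cause was not tested. At 37 to 84 reads per RNA-seq library for the 3 IGF2BP genes together, the SEs of *Igf2bp1* and *Igf2bp3* were 0.58 and 0.49.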
